A study of Rattus norvegicus with 2 samples.

Results

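The 8 genes described here, Gpam, Agpat2, Lpin1, Lpin2, Dgat1, Dgat2, Mogat1 and Pnpla3, encode enzymes of triglyceride synthesis and turnover in the liver. They were taken by name: every probe for a gene whose name in the array files equals one of the 8 was used, which gave 15 probes of 41012 on the array and 8 gene names of 33719. Wistar rats (spelled Wister in the labels) aged 7 weeks received a diet lacking choline, or a control diet, over 10 days, and total RNA was taken from liver; no further genotype or agent is given. A dye-swapped pair of two-colour arrays set the diets against each other. Choline-deficient RNA was in Cy5 and control RNA in Cy3 on array 1, and choline-deficient RNA was in Cy3 and control RNA in Cy5 on array 2. Each array's title names 4 choline-deficient animals, and neither pooling nor whether both arrays carried the same extracts is stated. The p-values below therefore rest on how far 2 arrays differ, which may be purely technical.

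Liver makes triglyceride by adding fatty acyl groups to glycerol-3-phosphate. Gpam, the mitochondrial glycerol-3-phosphate acyltransferase, adds the first acyl group, and Agpat2 adds the second to give phosphatidic acid. The lipins Lpin1 and Lpin2 remove its phosphate to give diacylglycerol, to which Dgat1 or Dgat2 adds the last acyl group. Mogat1 makes diacylglycerol by another route, from monoacylglycerol. Pnpla3, a patatin-like protein of lipid droplets, has been given both lipase and acyltransferase activity. Diacylglycerol is also the acceptor for phosphocholine in the making of phosphatidylcholine, the route that uses choline, and diets without choline are a classical means of inducing fatty liver in rats.

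Each probe is a 60-base oligonucleotide, placed here on rn4, the rat build of the array files. The probes below are shown so that both Dgat genes and Pnpla3 can be seen as they were probed. For Dgat2 they are the dimmer probes, read beside the brightest one on which its test rests, and for Pnpla3 the one with the smaller ratio. All 60 bases take part in hybridisation, so none is capitalised.
Dgat2 probe A_43_P15649, chr1:156459399-156459458, minus strand: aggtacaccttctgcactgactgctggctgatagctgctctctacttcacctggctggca
Dgat2 probe A_44_P180012, chr1:156450786-156450845, minus strand: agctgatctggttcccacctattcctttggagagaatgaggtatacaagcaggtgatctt
Dgat1 probe A_44_P515334, chr7:114553035-114553094, minus strand: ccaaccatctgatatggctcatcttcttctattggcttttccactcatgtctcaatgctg
Dgat1 probe A_44_P515326, chr7:114552281-114552340, minus strand: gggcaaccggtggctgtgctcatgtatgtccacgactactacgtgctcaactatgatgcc
Pnpla3 probe A_44_P263037, chr7:122162823-122162882, plus strand: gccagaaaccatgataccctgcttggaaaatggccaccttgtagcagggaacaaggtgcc
The brightest Dgat2 probe, A_42_P733209, lies at chr1:156447836-156447895 on the minus strand, downstream of both Dgat2 probes printed. The other Pnpla3 probe, A_44_P653304, lies at chr7:122172588-122172647 on the plus strand, downstream of the one printed. The probes of each of these genes therefore read separate stretches of the transcript.

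On each array 43379 spots were for genes. On array 1, 62.9% of them were well above background (a flag of the scanning software) in choline-deficient RNA and 54.2% in control RNA, and on array 2, 53.5% in choline-deficient RNA and 63.2% in control RNA. Cy5 was thus the channel with more detected spots on both arrays. After normalization, 18208 genes were tested, among them all 8 triglyceride synthesis genes. Precision is limited throughout by there being 2 arrays. The hepatocyte markers Alb, Ttr, Apoa1, Cps1, Tf, Serpina1, Fga and Hnf4a were well above background in both diets on both arrays (8 of 8). RNA came from whole liver, so fewer cells of a type and less RNA per cell cannot be told apart.

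Of the 8 genes, Pnpla3 was called higher, from a control level not flagged well above background, and Dgat2 was called lower in choline-deficient liver. The remaining 6, from the first acylation through the lipins to Dgat1 and Mogat1, did not pass the test. Ratios are given as log2 of choline-deficient over control, so that a positive value means higher in choline-deficient liver. Limma's test of the mean against 0, with Benjamini-Hochberg adjustment over all genes tested and a threshold of 0.05, called 4.37% of all genes higher and 4.22% lower, 8.58% in all. The counts of 1 higher and 1 lower among 8 stand beside 795 and 768 among 18208. The median ratio of the 8 genes was -0.05, against 0.00 over all genes tested. The ratio had the same sign on both arrays for Gpam, Agpat2, Dgat2, Mogat1 and Pnpla3, and opposite signs for Lpin1, Lpin2 and Dgat1 (56.4% of all genes tested had the same sign).

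**Figure D1:**
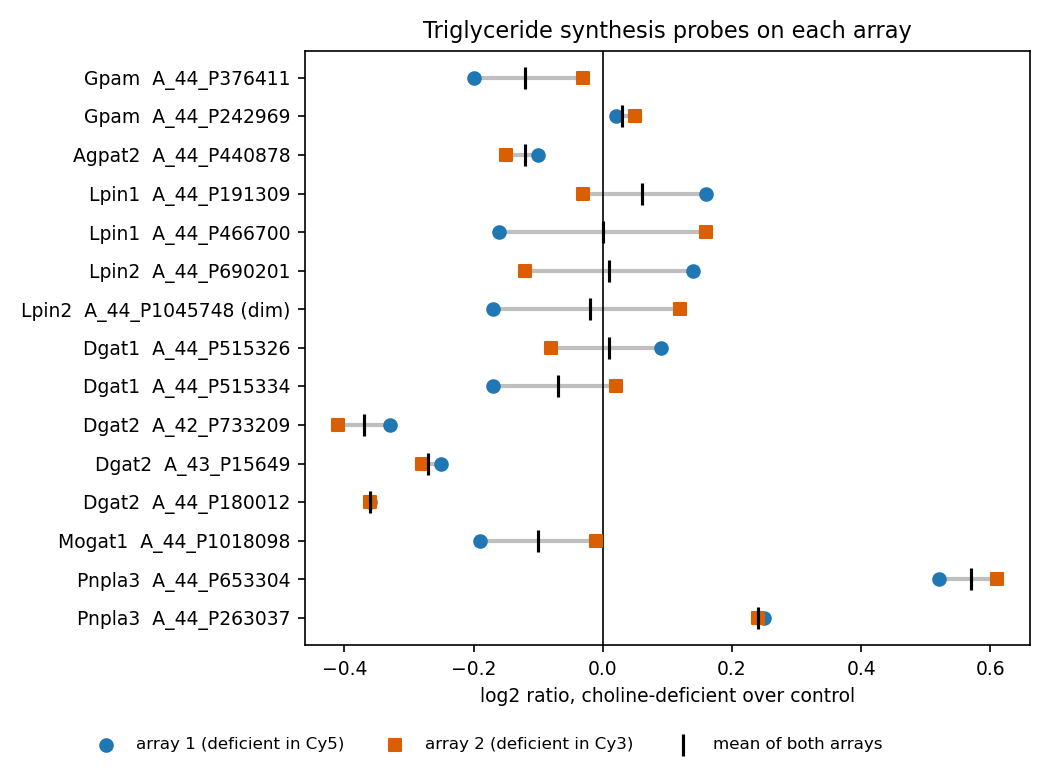
Log2 ratio of choline-deficient over control liver (horizontal axis) for the 15 probes of the 8 genes, one row per probe, with array 1 as circles, array 2 as squares and their mean as a bar; the gene's representative probe is in its first row. All 3 Dgat2 probes lie left of 0 and both Pnpla3 probes right of 0 on both arrays; the Lpin2 probe marked dim was not tested.

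Dgat2, the acyltransferase of the endoplasmic reticulum and lipid droplets that accounts for much of liver triglyceride synthesis, fell. At its brightest probe, A_42_P733209, the authors' deposited processed signal (background-subtracted and dye-normalized scanner units) was 10321 in choline-deficient and 13098 in control liver on array 1, and 9496 in choline-deficient and 13012 in control liver on array 2. Both choline-deficient values were below both control values. The log2 ratio was -0.33 on array 1 and -0.41 on array 2, a mean of -0.37 ± 0.05 (SD, n = 2 arrays), or 1.29-fold lower, with a 95% interval of the moderated test from -0.57 to -0.17 (limma adjusted p = 0.00977). This mean ranked 505 from the lowest of 18208 genes. The call was lost with arrays centred on their median and no loess, where the ratios were 0.93 on array 1 and -1.31 on array 2 (mean -0.19), and with the deposited log ratio (mean -0.40, limma adjusted p = 0.379); neither setting called any gene. With an offset of 16 the mean was -0.36 and the adjusted p 0.0498, or 0.0505 with each gene's probe held.

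The other Dgat2 probes read the same direction. Probe A_44_P180012, which lies between the other Dgat2 probes, had deposited processed signals of 622 in choline-deficient against 889 in control liver on array 1 and 644 against 844 on array 2. Its log2 ratio was -0.36 on both arrays. Probe A_43_P15649, the most upstream, had 346 in choline-deficient against 458 in control liver on array 1 and 329 against 418 on array 2, with log2 ratios of -0.25 and -0.28. Each probe on its own gave limma adjusted p = 0.0183 for A_42_P733209, 0.0219 for A_44_P180012 and 0.115 for A_43_P15649, adjusted over 22382 probes. In that fit 3.63% of probes were called lower. All 6 probe readings of Dgat2 lay between -0.41 and -0.25, and the fall reached the threshold at 2 of 3 probes. Probes of 1 gene on the same arrays are not replicates of the diet.

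Dgat1 encodes the other diacylglycerol acyltransferase, which belongs to a different protein family. Its deposited processed signal at probe A_44_P515326 was 1739 in choline-deficient and 1697 in control liver on array 1, and 1706 in choline-deficient and 1804 in control liver on array 2. The diets overlapped, and the log2 ratio was 0.09 on array 1 and -0.08 on array 2 (mean 0.01 ± 0.12, SD, n = 2 arrays, 95% interval -0.20 to 0.21, limma adjusted p = 0.996). The second Dgat1 probe, A_44_P515334, was at -0.17 and 0.02. The intervals of Dgat1 and Dgat2 overlap slightly, and the difference between these genes was not tested.

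Pnpla3 was called higher, and by the software's flag it was detected in choline-deficient liver alone. It was not well above background in control liver on either array and was so in choline-deficient liver on both, at both probes. It thus passed the filter on dim probes only through the diet in which it was high, and it was not tested when detection in both diets was required. With no filter on dim probes, over 33706 genes, its mean log2 ratio was 0.57 (limma adjusted p = 0.000172). That fit still took the brighter Pnpla3 probe, A_44_P653304. Its normalized log2 level was above that of A_44_P263037 in choline-deficient liver (7.45 against 7.26) and below it in control liver (6.88 against 7.02). The choice of probe thus also came through the diet in which Pnpla3 was high, and this p-value is not free of it. At probe A_44_P653304 the raw mean spot signal was 195 in choline-deficient and 94.2 in control liver on array 1, and 146 in choline-deficient and 101 in control liver on array 2. Negative-control spots give the level of no hybridisation: over 153 such spots their median was 72.9 in the choline-deficient dye and 85.1 in the control dye on array 1, and 96.5 and 89.7 on array 2. Their 95th percentile was 81.5 in the choline-deficient dye and 95.7 in the control dye on array 1, and 104 and 99.3 on array 2. The control signal at this probe was therefore within a few units of that percentile on both arrays, and the choline-deficient signal was above it on both. At probe A_44_P263037 the raw mean signal was 149 in choline-deficient and 102 in control liver on array 1. On array 2 it was 133 in choline-deficient and 122 in control liver. This control signal was above the negative-control percentile on both arrays, although the flag did not count it as detected. The flag is therefore no evidence that Pnpla3 was absent from control liver.

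With normexp background correction and an offset of 50, which draws dim ratios towards 0, the log2 ratio of Pnpla3 was 0.52 on array 1 and 0.61 on array 2 (mean 0.57 ± 0.06, SD, n = 2 arrays, limma adjusted p = 2.90e-05 among the genes that passed the filter). The control level was not flagged well above background, so the fold was also taken against a floor. On each array the reference was the higher of the control level and the lowest level among detected probes. Against it, the mean level in choline-deficient liver was 1.43-fold higher at A_44_P653304 and 1.18-fold at A_44_P263037. Without the floor the mean folds were 1.48 and 1.18. These are estimates and not lower limits of the change. At A_44_P653304 the 95% interval of the moderated test ran from 0.36 to 0.77 on the log2 scale. Probe A_44_P263037 had log2 ratios of 0.25 and 0.24 and did not pass on its own (limma adjusted p = 0.166), whereas A_44_P653304 did (adjusted p = 0.000369). Both probes entered this probe-by-probe fit only through the diet in which they were high. In that fit 3.54% of probes were called higher. At an offset of 16 A_44_P263037 became the brighter probe, and Pnpla3 was then not called (0.33, adjusted p = 0.0907).

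The size of the Pnpla3 change depended on how background was removed. In the authors' deposited table, where no offset is added after background subtraction, the processed signal at A_44_P653304 was 110 in choline-deficient and 8.28 in control liver on array 1, and 76.5 in choline-deficient and 7.74 in control liver on array 2. The control value of array 1 is one that the software had replaced by a surrogate, since the spot was not above background. The deposited log ratio was thus 3.73 on array 1 and 3.30 on array 2 on the log2 scale, which is 13.3-fold and 9.88-fold. Each array's own error model gave a deposited p of 5.19e-12 on array 1 and 5.28e-07 on array 2, which covers error within an array only. At A_44_P263037 the deposited processed signals were 65.3 in choline-deficient and 21.2 in control liver on array 1 and 61.3 in choline-deficient and 26.8 in control liver on array 2, or 3.08-fold and 2.29-fold.

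Both probes were higher in choline-deficient liver on both arrays in each of these, but the mean ratio at A_44_P653304 ran from 0.57 with the offset of 50 through 0.77 with an offset of 16 and 0.81 with negative-control spots as background to 3.52 in the deposited values. Limma fitted to the deposited log ratio did not call Pnpla3 (adjusted p = 0.191) and called 0 genes in all (2123 had an unadjusted p under 0.05). A fold for Pnpla3 is therefore not fixed in these data.

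**Figure D2:**
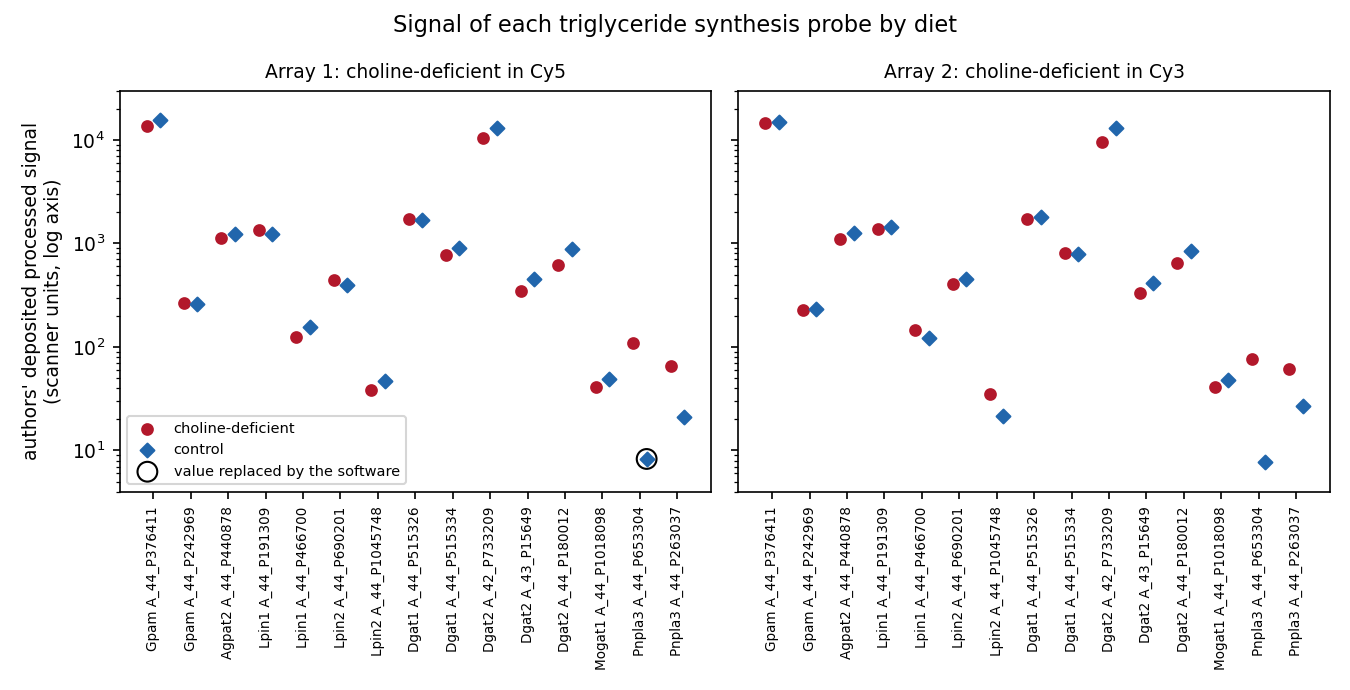
The authors' deposited processed signal (scanner units, log axis) of each of the 15 probes in choline-deficient (circles) and control liver (diamonds) on each array. The 3 Dgat2 probes are lower in choline-deficient liver on both arrays, both Pnpla3 probes are higher with control signals from 7.74 to 26.8, and the ringed control value was replaced by a surrogate.

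**Figure D3:**
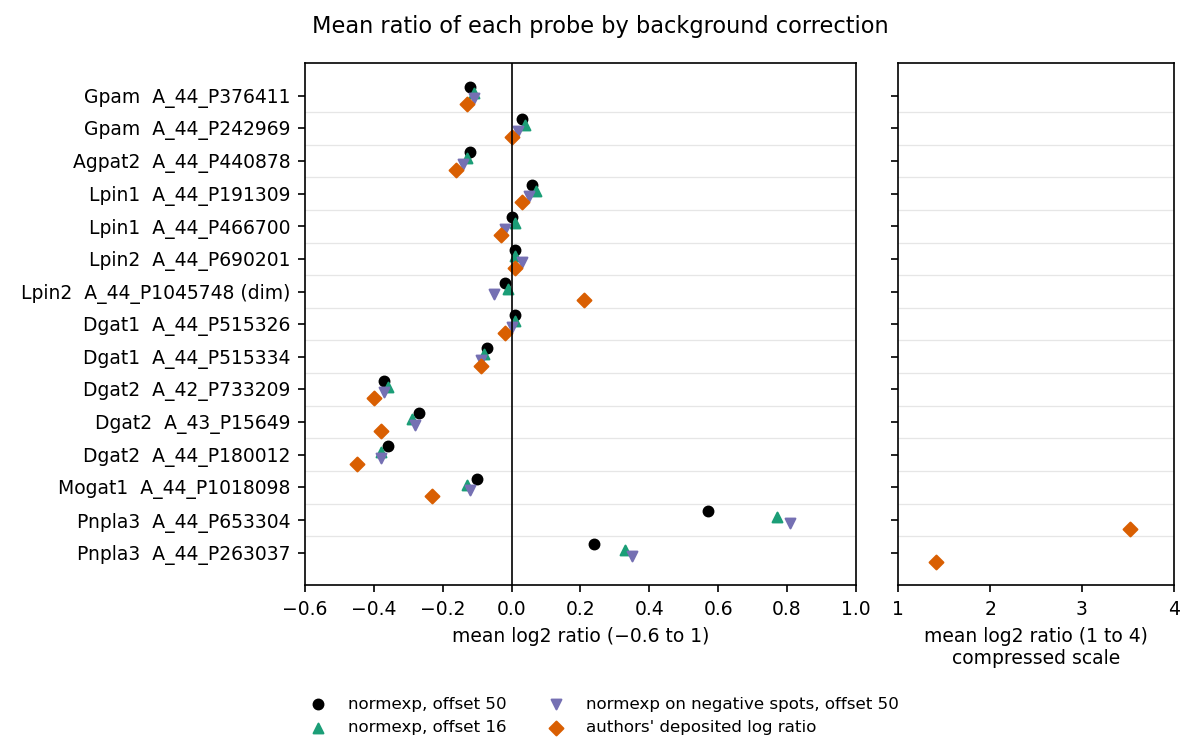
Mean log2 ratio over both arrays, choline-deficient over control, of each probe under 4 ways of handling background, with the axis split at 1 and the right panel on a compressed scale. Pnpla3 probe A_44_P653304 moves between 0.57 and 3.52, while the 3 Dgat2 probes stay between -0.45 and -0.27.

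RefSeq promoter windows of the GRCr8 build were matched for 6 of the 8 genes (Gpam, Agpat2, Lpin1, Lpin2, Mogat1 and Pnpla3). The 250 bases before the start of Pnpla3, the gene of the 8 called higher, are printed 5′ to 3′ with motif matches in capitals.
Pnpla3, GRCr8 chr7:117173278-117173527, plus strand: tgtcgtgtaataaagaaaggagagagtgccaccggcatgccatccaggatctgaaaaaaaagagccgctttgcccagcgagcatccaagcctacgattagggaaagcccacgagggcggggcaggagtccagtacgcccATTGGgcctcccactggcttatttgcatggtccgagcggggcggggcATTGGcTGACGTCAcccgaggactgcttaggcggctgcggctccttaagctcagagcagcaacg
The capitals mark CCAAT read on the opposite strand, starting 111 and 64 bases before the start, and the palindrome TGACGTCA, starting 58 bases before it. No match overlaps another. Both strands were searched for 4 motifs. CCAAT is bound by the factor NF-Y. The palindrome is the cyclic AMP response element. The E-box was searched as CACGTG. The sterol response element was searched in the form TCACNCCAC. Over 33469 RefSeq promoters of the same length, 34.0% held the CCAAT box, 1.59% the cyclic AMP response element, 5.59% the E-box and 0.974% the sterol response element in these forms. Gpam, Lpin1 and Mogat1 each held 1 CCAAT, and none of the 6 windows held the E-box or the sterol response element in these letters. A match is a run of letters only and is no evidence of binding.

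The enzymes of the first acylations did not pass. Gpam had a deposited processed signal at its brighter probe of 13596 in choline-deficient and 15719 in control liver on array 1, and 14462 in choline-deficient and 14940 in control liver on array 2. Its choline-deficient values were below both control values, yet its log2 ratio was small, at -0.20 and -0.03 (mean -0.12 ± 0.12, SD, n = 2 arrays, limma adjusted p = 0.699). The dimmer Gpam probe, A_44_P242969, was at 0.02 and 0.05, so that the probes differed in sign. Agpat2, whose loss in humans causes a congenital lipodystrophy, likewise had both choline-deficient values below both control values, with 1119 in choline-deficient and 1236 in control liver on array 1, and 1100 in choline-deficient and 1248 in control liver on array 2. Its log2 ratio was -0.10 and -0.15 (mean -0.12 ± 0.03, limma adjusted p = 0.665), with a 95% interval from -0.33 to 0.08.

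The lipins, which make diacylglycerol and in the case of Lpin1 also act with nuclear transcription factors, showed no change beyond the spread between arrays. Lpin1 had deposited processed signals of 1347 in choline-deficient and 1237 in control liver on array 1, and 1370 in choline-deficient and 1426 in control liver on array 2. Its log2 ratios were 0.16 and -0.03 (mean 0.06 ± 0.14, SD, n = 2 arrays, limma adjusted p = 0.889), and its dimmer probe gave -0.16 and 0.16. Lpin2 had 439 in choline-deficient and 394 in control liver on array 1 and 410 in choline-deficient and 451 in control liver on array 2, with log2 ratios of 0.14 and -0.12 (mean 0.01 ± 0.19, limma adjusted p = 0.991). The diets overlapped for both lipins. A second Lpin2 probe, A_44_P1045748, was well above background on 1 array in each diet and was not tested.

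Mogat1, an enzyme that is low in normal adult liver of mice and is induced in their fatty liver, had a single and dim probe. Its raw mean signal was 125 in choline-deficient and 123 in control liver on array 1, and 126 and 142 on array 2. Raw signals are not normalized between dyes, so the diets cannot be compared by them directly. The deposited processed signal was 41.3 in choline-deficient and 48.8 in control liver on array 1, and 41.3 and 48.1 on array 2. The probe was well above background on both arrays in control liver and on 1 array in choline-deficient liver. Its log2 ratio was -0.19 on array 1 and -0.01 on array 2 (mean -0.10 ± 0.13, SD, n = 2 arrays, 95% interval -0.31 to 0.10, limma adjusted p = 0.753). No rise of Mogat1 was detected, but an offset of 50 on so dim a spot draws the ratio towards 0, and the interval does not allow for that. In the authors' deposited table its ratio was -0.24 on array 1 and -0.22 on array 2 on the log2 scale.

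Other genes of the same pathway were counted from a list of 27 names of glycerolipid synthesis enzymes, of which 21 were on the array under that name and 20 were tested. Of these, 1 rose, 4 fell and 15 did not pass (4.37% and 4.22% of all genes), with a median of -0.07 against 0.00 over all genes. The genes that fell included a pair of enzymes that handle glycerol-3-phosphate, the backbone precursor. Gpd2, the mitochondrial dehydrogenase that oxidises it, was at -0.76 on array 1 and -0.56 on array 2 (limma adjusted p = 1.49e-06), and Gk, glycerol kinase, which makes it, was at -0.67 and -0.33 (adjusted p = 0.000342). Gpd1, the cytosolic dehydrogenase, was at -0.16 and 0.14. Ppap2b (now Plpp3), a lipid phosphate phosphatase of membranes, fell (-0.57 and -0.25, limma adjusted p = 0.00431), although its dimmer probe was at -0.27 and did not pass. Gpat2, a second mitochondrial glycerol-3-phosphate acyltransferase that is known chiefly from testis, fell (-0.18 and -0.50, limma adjusted p = 0.0231), but no longer passed with dim probes left in (adjusted p = 0.0576). Agpat4, another member of the acylglycerophosphate acyltransferase family, rose (0.48 and 0.28, limma adjusted p = 0.00852). Lpin3, at 0.13 and 0.06, and Mogat2, at -0.04 and -0.23, did not pass.

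Acyl-CoA synthetases activate fatty acids, and not all of those listed supply the acyl groups of triglyceride. Of 9 tested, 1 rose and 3 fell, beside 4.37% and 4.22% of all genes. Acsl1, a main long-chain form of liver, fell (-0.46 on array 1 and -0.61 on array 2, limma adjusted p = 8.98e-05). Dimmer Acsl1 probes with means of -0.45, -0.46 and -0.47 passed on their own (limma adjusted p = 0.0071, 0.00354 and 0.00278), whereas another at -0.04 did not. Acsl3, which is found on the endoplasmic reticulum and on nascent lipid droplets, rose (0.67 and 0.69, limma adjusted p = 6.57e-07). Slc27a5, the bile acid CoA ligase, fell (-1.41 and -1.36), as did Acsm1, which activates medium-chain acids (-0.40 and -0.28, limma adjusted p = 0.0221). Acsm1 no longer passed at offset 16 (adjusted p = 0.0563) or with dim probes left in (adjusted p = 0.0516).

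Of 13 tested genes listed under triglyceride breakdown, 1 rose and 2 fell, beside 4.37% and 4.22% of all genes. Ces1d, a carboxylesterase known in mice as triacylglycerol hydrolase, fell (-0.94 on array 1 and -0.79 on array 2, limma adjusted p = 1.03e-09), and Faah, which hydrolyses fatty acid amides and not triglyceride, fell (-0.35 and -0.36, adjusted p = 0.0138). Lpl, lipoprotein lipase, rose (0.62 and 0.61, limma adjusted p = 6.09e-06), with a second probe at 0.31 that did not pass. Pnpla2, the adipose triglyceride lipase and a close relative of Pnpla3, was at 0.01 and -0.13 and did not pass.

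Of 13 tested genes listed under fatty acid synthesis, desaturation and elongation, 7 rose, 0 fell and 6 did not pass. Of all genes 4.37% rose and 4.22% fell. The median of the list was 0.36, beside -0.05 for the 8 triglyceride enzymes with 1 higher and 1 lower. The difference between the lists was not tested. Fasn, the fatty acid synthase, was at 0.81 and 1.11 (limma adjusted p = 5.61e-11). Fads2 and Fads1, the desaturases of polyunsaturated fatty acids, had means of 0.93 and 0.86, and Elovl6, an elongase, had a mean of 0.53 with a second probe at 0.29 that did not pass. Scd1, the stearoyl-CoA desaturase (now named Scd), rose to a lesser extent (0.33 and 0.43, limma adjusted p = 0.00743). Among 14 tested regulators, Insig1, a sterol-responsive protein that holds back SREBP processing, rose (2.19 and 2.04), as did Srebf1, which encodes the fatty acid-directed SREBP (0.37 and 0.24, limma adjusted p = 0.0465). The call of Srebf1 was at the threshold and was lost under 7 other settings, although its second probe passed on its own (0.35, limma adjusted p = 0.0298). Mlxipl, which encodes the carbohydrate-responsive factor ChREBP, was at -0.08 and -0.14, and Pparg was at 0.00 on both arrays. The direction of Mlxipl turned with median centring in place of loess (0.05).

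**Figure D4:**
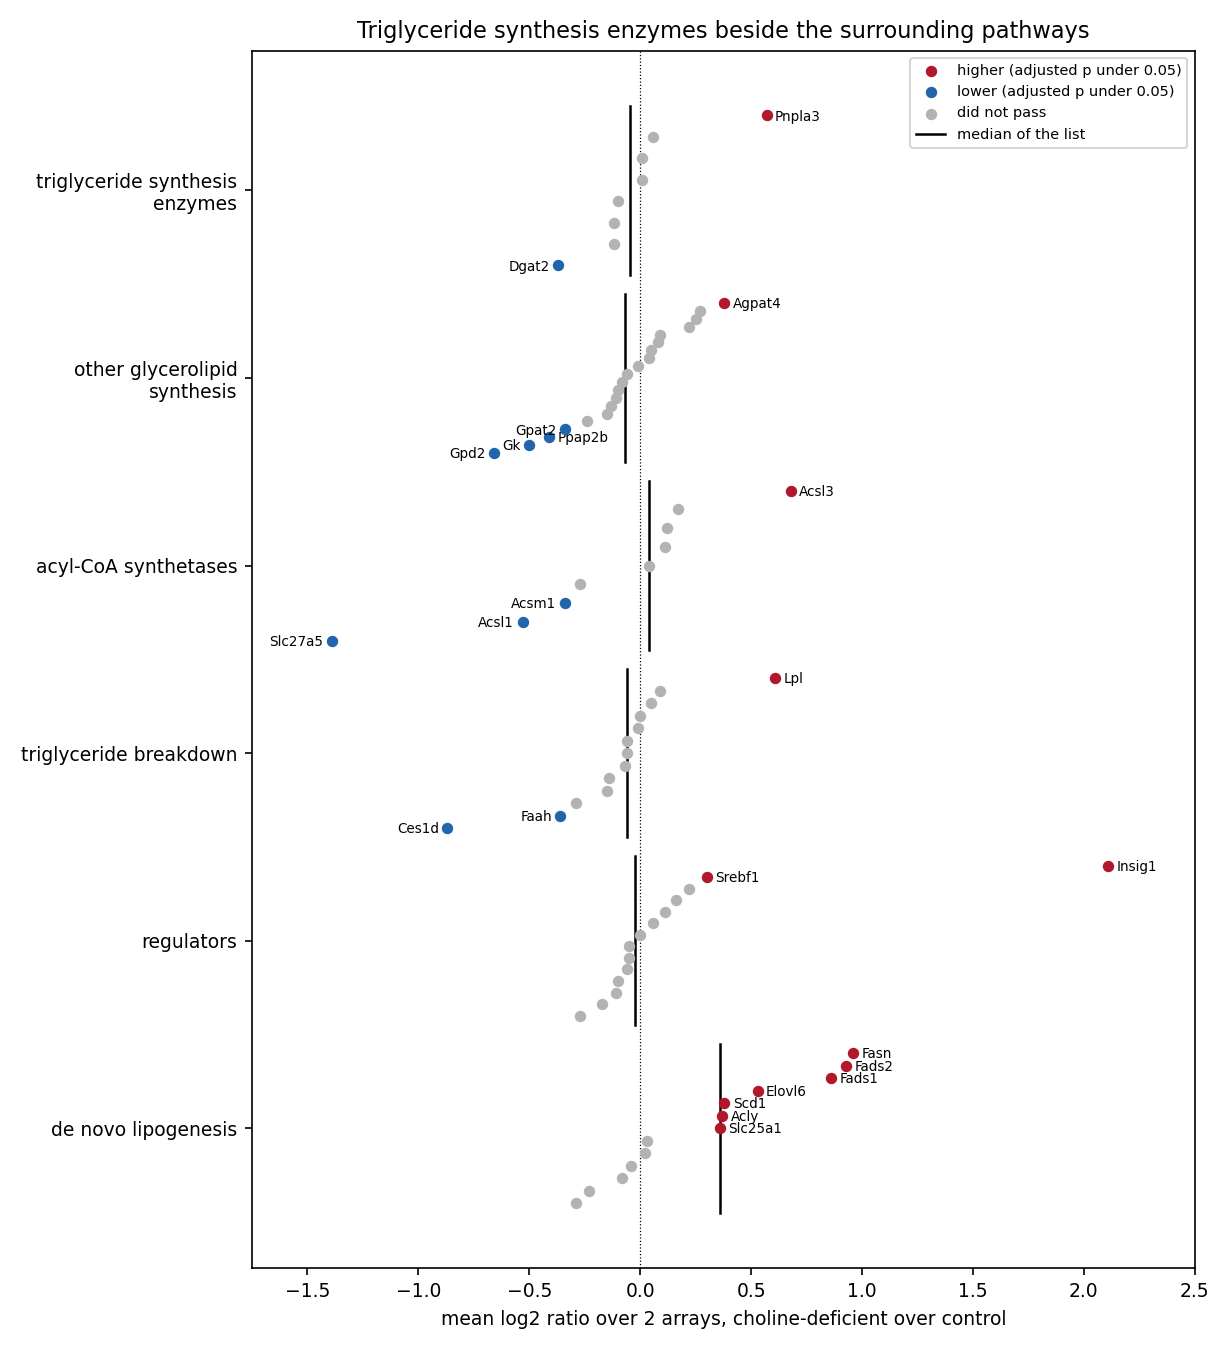
Mean log2 ratio over 2 arrays, choline-deficient over control, of each tested gene in 6 lists (rows), with a bar at each list's median and colours for genes called higher, called lower or not passed at an adjusted p of 0.05. Among the triglyceride synthesis enzymes Dgat2 and Pnpla3 stand out on either side of a median of -0.05, whereas 7 of 13 de novo lipogenesis genes were called higher.

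Markers of other cell types were read beside these genes. Of 8 adipocyte markers (Lipe is also in the breakdown list), 4 were well above background on both arrays in choline-deficient liver and 3 in control liver. Plin1 and Retn were well above background in neither diet, and Adipoq only in choline-deficient liver on 1 array. The summed normalized level of the 8 was 11.47 and 11.49 on the log2 scale in choline-deficient liver and 11.67 and 11.72 in control liver. Among these markers Fabp4 rose (mean 1.23) and Cfd fell (mean -0.49). None of 6 skeletal muscle markers was well above background on both arrays in either diet. All 6 macrophage and all 5 stellate markers on the array were, in both diets, as were 5 of 7 endothelial markers in choline-deficient and 6 of 7 in control liver, 3 of 6 cholangiocyte markers in choline-deficient and 4 of 6 in control liver, and 3 of 6 enterocyte markers in both. Of the genes tested in these lists Marco (0.91), Col1a1 (0.53), Fabp2 (0.61) and Cdh17 (0.51) rose, and Kdr (-0.46) and Apoa4 (-0.42) fell. Over all genes 4.37% were called higher and 4.22% lower. Most other markers did not pass: 5 of 6 tested for macrophages, 5 of 6 for endothelium, 4 of 5 for stellate cells and 4 of 4 for cholangiocytes. List medians were 0.03 for macrophage, -0.09 for endothelial and 0.01 for stellate markers, so Marco, Kdr and Col1a1 do not stand for their lists. Among the hepatocyte markers Apoa1 rose (0.40) and Alb (-0.31) and Fga (-0.53) fell, with a summed level of 19.23 and 18.92 in choline-deficient liver and 19.09 and 19.44 in control liver. The summed level of the 6 macrophage markers was 14.43 and 14.60 in choline-deficient liver and 14.75 and 14.62 in control liver. That of the endothelial markers was 14.48 and 14.49 in choline-deficient and 14.99 and 14.79 in control liver, that of the stellate markers 12.66 and 12.71 against 12.63 and 12.68, that of the cholangiocyte markers 10.28 and 10.24 against 10.22 and 10.11, and that of the enterocyte markers 16.67 and 16.26 against 16.68 and 16.91. Each sum adds levels on the linear scale, so the brightest genes of a list set it. Clec4f was at 14.09 in choline-deficient and 14.39 in control liver, Kdr at 14.27 and 14.73, and Apoa4 at 16.27 and 16.69. Cfd, of the adipocyte list, was at 10.61 in choline-deficient and 11.1 in control liver, and Lrat, of the stellate list, at 11.87 and 11.97. The macrophage, endothelial, enterocyte, adipocyte and stellate sums are thus mainly the levels of these genes and no measure of the cell types. The part of these cell types in the ratios above was not tested.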

How the data were processed

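Total liver RNA was measured on 2 two-colour arrays. Per the file headers, scans were quantified by the authors in Feature Extraction 9.5.3.1, a program of Agilent, whose version the submitters' processing notes give as 9.5. The deposited files hold raw intensity values per dye, processed intensity values after background subtraction with detrending and lowess dye normalization, the deposited log10 ratio of Cy5 over Cy3, and a deposited p-value from the error model within 1 array. The series table was not used.

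From raw mean signal and median local background, limma 3.58.1 in R 4.3.3 computed normexp-corrected (offset 50), loess-normalized log2 ratios, turned by the labels' dyes. Control spots had weight 0, outlier-flagged spots were left out (174 and 151), and replicate spots were averaged. A probe was kept if at least 1 diet had it well above background on each array (22382), and each gene was represented by its brightest kept probe. Ratios were tested against 0 with lmFit and eBayes (1 residual and 58.7 prior degrees of freedom), so the spread is largely pooled over genes. The procedure was tested on simulated data. Deposited log10 ratios were converted to log2. The depth of an array is not a count, and precision rests on 2 arrays.

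Members, lists, tests and alternatives were chosen with earlier results of these data known. From each list up to 4 called genes with the largest mean are named, together with Srebf1, Mlxipl, Pparg, Fasn and Scd1; Gpat2, Gpd1, Lpin3, Mogat2, Pnpla2 and the markers named were chosen after their values were seen. Symbols are those of the array files, and current names come from RefSeq accessions of GRCr8. Alternatives were another offset, the deposited log ratio, median centring, other probe filters, other probe summaries, another variance prior and each array alone. Negative-control spots as background, and an offset of 16 with probes held, were chosen after seeing the data.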

Additional observations from a re-analysis of the deposited data

How the results depend on the processing

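No paired analysis was possible because the 2 arrays form a single group of ratios. Each array alone gives a value with no test, from -0.41 to -0.33 for Dgat2 and from 0.52 to 0.61 for Pnpla3. Of the 76 planned checks on the 8 genes, 63 left the result as it was, single arrays being judged by the SD between arrays. Each of 2 arrays always lies within their SD of the mean, so the single-array checks could not come out otherwise. Many of the other checks concern genes that did not pass. Over all checks, planned and added, the result was weaker in 4 of 13 for Dgat2 and 4 of 11 for Pnpla3.

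With the deposited log ratio and with median centring, limma called 0 genes in either direction among the 8, in each pathway list and over all 18208 genes (2123 and 19 at an unadjusted p under 0.05). Median centring leaves the intensity-dependent dye difference in place and moved the median of all genes to 0.65 on array 1 and -0.41 on array 2. Pnpla3 (1 gene called higher) gave 0 calls also with an offset of 16, where the other probe became its brightest (0.33, adjusted p = 0.0907), and when a probe had to be detected in both diets, which drops it. With the probes held at an offset of 16, Pnpla3 kept its call (0.77, adjusted p = 3.66e-05) while Dgat2 lay at adjusted p = 0.0505, leaving 0 of the 8 called lower; the added checks left 15 of 16 results as they were. Regulators called higher were 1 in place of 2 with an offset of 16 (probes chosen anew or held), without the dim filter, with an intensity trend and with negative-control background. Regulators called lower became 1 with all probes averaged or tested singly, and de novo lipogenesis genes called lower became 1 with an intensity trend. The cause was not tested.

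Among genes that did not pass, signs turned with median centring for Gpam (0.06), Agpat2 (0.05), Gpd1 (0.17), Mlxipl (0.05) and Pnpla2 (0.10), at the second probe of Gpam (0.03), and for Dgat1 with the deposited log ratio (-0.02), with probes averaged (-0.03) and at its second probe (-0.07). Median centring gave -0.19 and the deposited log ratio -0.40 for Dgat2 (adjusted p = 0.379). Signal near background limits Pnpla3 and Mogat1.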
